A study of Mus musculus with 15 samples.

Results

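Plasmacytoid dendritic cell genes were examined in lineage-negative bone marrow of 4 genotypes. The set comprised 8 genes that are known to mark this cell type, namely Siglech, Ccr9, Tcf4, Spib, Klk1, Pacsin1, Cd300c and Lag3, out of 45706 genes in the count table. They were chosen by name, with earlier results of these data known, so counts over the set describe it and are not independent support. Their symbols were mapped to Ensembl identifiers with GENCODE mouse vM21. All 8 passed the filter on low counts. In the main test (edgeR, 14 of the 15 libraries), 0 of them passed an adjusted p of 0.05 in any comparison, beside 0.0369% to 0.801% of all genes. The outcome depended on the method. DESeq2 called 4 members between G3 mTerc-/-Puma+/+ and the group labelled G3 mTerc-/-Puma-/-, beside 0.906% of all genes. It called Ccr9 between G3 mTerc-/-Puma+/+ and Puma-/-, beside 5.04%. The mean levels of most members were ordered alike, lowest in G3 mTerc-/-Puma+/+ and highest in 3 of the 4 libraries labelled G3 mTerc-/-Puma-/-. Only for Siglech and Pacsin1 did each of these 3 exceed every library of the other genotypes. Against a single other genotype, 3.16% to 5.32% of all genes did so, and the share against all of them at once was not computed. The fourth library of that label held hardly any Siglech, and with it included neither gene kept this trait.

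Plasmacytoid dendritic cells are the sentinels of the immune system for viral nucleic acid, which they detect in endosomes through Toll-like receptors and answer with type I interferon. They develop in the bone marrow from progenitors that carry the receptor FLT3. Their identity depends on the E protein TCF4, whose opponents are the ID proteins, and on cofactors such as SPIB and IRF8.

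The donor mice, 8 to 12 weeks old and on a C57BL/6J background (CD45.2), were WT, Puma-/-, G3 mTerc-/-Puma+/+ or labelled G3 mTerc-/-Puma-/-. Puma-/- mice lack the pro-apoptotic BH3-only protein PUMA, and mTerc-/- mice lack the RNA of telomerase and were bred to generation 3 (G3), so that their telomeres are short. Stem and progenitor (LSK) cells of these donors were transplanted into lethally irradiated CD45.1 mice and, after 6 weeks, into secondary recipients, so all groups share irradiation of the host and 2 rounds of transplantation. Marrow was taken at signs of disease or 16 weeks after the second transplantation, mature cells were depleted with antibodies, and a sort on CD45.2 is not stated for these libraries, so RNA of host cells may be present. The depletion targets B220, a surface protein that mouse plasmacytoid dendritic cells carry, so the libraries hold what was left of these cells and their precursors. Poly(A) RNA was sequenced in 3 WT, 4 Puma-/-, 4 G3 mTerc-/-Puma+/+ libraries and 4 libraries labelled G3 mTerc-/-Puma-/-. Whether replicates came from separate mice is not stated in the labels, so p-values measure the spread between these samples. In such bulk samples, fewer cells of a type and less RNA per cell cannot be told apart.

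Each library held 102790519 to 158367059 counts. Levels are given as normalized CPM, that is counts scaled to the library size by the TMM method over all 15 libraries, and a count of 0 allows up to 3 counts, or at most 0.0296 CPM, for counting error only. Stem and progenitor markers marked the fraction, with Kit at 114 to 165 CPM and Mpo, the most abundant, at 6967 to 13020 CPM. Bbc3, the gene of PUMA, was at 9.71 to 23.6 CPM in WT and 5.04 to 6.83 in Puma-/-, but at 13.5 to 17.1 in the group labelled G3 mTerc-/-Puma-/-. That label was thus not borne out by the Bbc3 count, and every comparison with these libraries rests on the label. Terc was at 4 to 17 counts in the mTerc wild-type libraries and did not exceed 1 count in any of the 8 mTerc-/- libraries. The libraries also differed in Xist, the RNA of the inactive X chromosome. It was at 1.73 to 418 CPM in WT, 466 to 868 in Puma-/- and 0.177 to 88.9 in G3 mTerc-/-Puma+/+. Xist was at 663, 0.388 and 446 CPM in replicates 1, 3 and 4 of the group labelled G3 mTerc-/-Puma-/-. Ddx3y, a gene of the Y chromosome, was at 21.3 to 43.2 CPM in WT and 0.0178 to 0.0448 in Puma-/-. It was at 42.8 to 48.3 CPM in G3 mTerc-/-Puma+/+ and 2.88 to 46.0 in those 3 libraries. Between Puma-/- and G3 mTerc-/-Puma+/+ both markers of sex were without overlap, so sex and genotype cannot be told apart there.

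Replicate 2 of the group labelled G3 mTerc-/-Puma-/- stood apart from all others. Its median correlation with the other libraries was 0.953 over 18983 genes, where theirs were 0.978 to 0.985. It held 15 counts of Siglech, 20 of Cd300c and 0 of Klk1, whereas Ccr9 at 5.35 CPM and Lag3 at 7.71 CPM were measured within or close to the range of the other libraries. The receptor gene Flt3 was at 3.45 CPM there (57.2 to 187 in the other 14 libraries) and Irf8 at 31.4 CPM (462 to 866). The 6 monocyte and macrophage genes summed to 88.1 CPM in this library and to 732 or more in every other library. The study did not draw it in its heatmaps, although its methods state that no data were excluded. The tests below use the other 14 libraries. Values with all 15 stand beside those of the members and beside list results that turn with them.

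**Figure D1:**
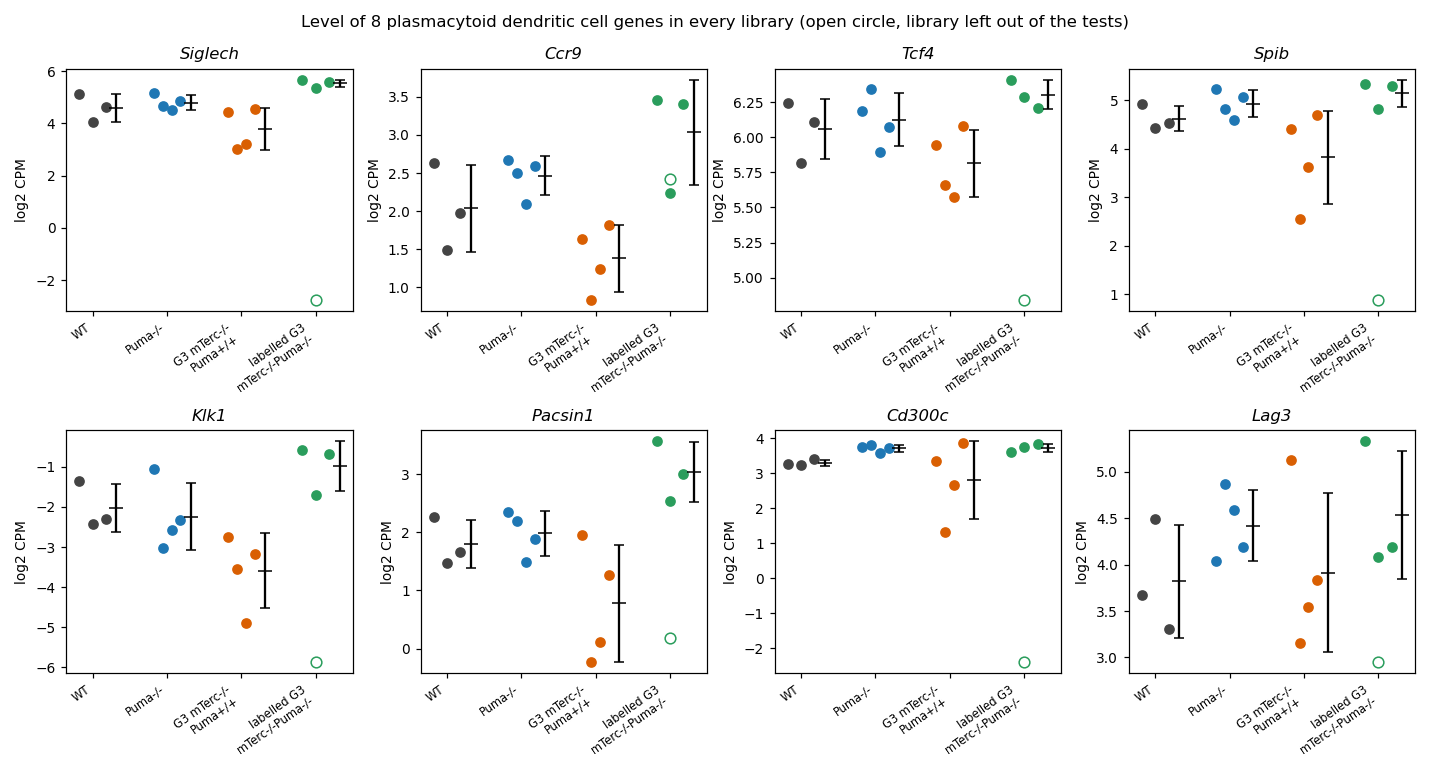
Level of each gene (vertical axis, log2 CPM with a prior count of 2) in the 4 genotypes (horizontal axis). Filled circles are the 14 libraries tested, the open circle is replicate 2 of the group labelled G3 mTerc-/-Puma-/-, and bars show the mean ± SD of the filled circles. The 3 filled circles of that label lie above all G3 mTerc-/-Puma+/+ circles for Siglech, Ccr9, Tcf4, Spib, Klk1 and Pacsin1, but not for Cd300c and Lag3.

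TCF4 and the other E proteins bind DNA at E-boxes, of which CAGGTG is a favoured form, so the region upstream of the members was searched for this hexamer. RefSeq (GRCm38.p6) provided the upstream region for 6 of the 8 members, read from 250 to 11 bases before the annotated start. On either strand, where it reads CACCTG when reversed, it occurred in 4 of these 6 windows and in 16.6% of all 32851 windows of this length. The 4 windows are shown because they hold it. Capitals mark CAGGTG and a second E-box form, spelled CATCTG on one strand and CAGATG on the other, and the matches of the forms do not overlap. The windows follow RefSeq starts, and those of Ccr9, Cd300c and Pacsin1 lie inside the gene spans given below.
Siglech, chr7:55767934-55768173, plus strand: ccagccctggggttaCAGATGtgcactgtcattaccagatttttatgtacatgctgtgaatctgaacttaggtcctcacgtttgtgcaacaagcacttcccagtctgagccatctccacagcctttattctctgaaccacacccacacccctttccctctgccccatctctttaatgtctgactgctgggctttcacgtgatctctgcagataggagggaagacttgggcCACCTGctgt
Ccr9, chr9:123766961-123767200, plus strand: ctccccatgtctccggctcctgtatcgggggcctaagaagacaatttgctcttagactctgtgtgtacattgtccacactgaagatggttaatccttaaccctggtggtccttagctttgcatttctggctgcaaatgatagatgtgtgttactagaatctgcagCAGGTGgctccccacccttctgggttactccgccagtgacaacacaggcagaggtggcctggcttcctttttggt
Klk1, chr7:44225110-44225349, plus strand: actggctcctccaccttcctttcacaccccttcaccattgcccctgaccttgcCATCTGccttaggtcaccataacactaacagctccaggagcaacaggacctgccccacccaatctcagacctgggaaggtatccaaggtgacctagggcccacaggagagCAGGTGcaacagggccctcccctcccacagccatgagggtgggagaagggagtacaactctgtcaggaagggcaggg
Cd300c, chr11:114960518-114960757, minus strand: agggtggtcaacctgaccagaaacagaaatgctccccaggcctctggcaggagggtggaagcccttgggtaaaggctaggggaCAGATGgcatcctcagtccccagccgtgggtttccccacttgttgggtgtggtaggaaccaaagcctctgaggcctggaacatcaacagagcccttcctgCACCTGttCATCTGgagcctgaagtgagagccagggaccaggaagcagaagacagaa
CATCTG was present in the windows of Siglech, Klk1, Cd300c and Spib, and in 14.1% of all windows. The Pacsin1 window held neither form. The ETS-type motif GAGGAAGT (or ACTTCCTC), of the kind bound by SPIB and its relatives, was in 0 of the 6 windows and in 2.29% of all. These matches describe letters in a window and are not binding sites.

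Siglech, which encodes the sialic acid-binding receptor that defines mouse plasmacytoid dendritic cells, is a protein-coding gene on chromosome 7 (ENSMUSG00000051504, GRCm38, 55768178 to 55778925, plus strand). Its level was 34.7, 16.4 and 24.6 CPM in the WT libraries, 35.6, 25.2, 23.0 and 29.0 in Puma-/-, and 21.7, 8.08, 9.19 and 23.3 in G3 mTerc-/-Puma+/+. In replicates 1, 3 and 4 of the group labelled G3 mTerc-/-Puma-/- it was 50.2, 41.3 and 47.6 CPM, and in replicate 2 it was 0.129 CPM. Those 3 libraries were higher than every library of the other genotypes, and replicates 2 and 3 of G3 mTerc-/-Puma+/+ were the lowest of the 14. The means were 25.2 ± 9.14 (SD, n = 3), 28.2 ± 5.51 (n = 4), 15.6 ± 8.05 (n = 4) and 46.4 ± 4.60 (n = 3) in the same order of genotypes, replicate 2 aside. Between the last 2 groups the log2 difference was 1.57 (SE 0.344, adjusted p = 0.126 in edgeR's quasi-likelihood test), and the exact permutation p was 0.0286, the smallest that 3 against 4 libraries allow. With all 15 libraries it was 1.16 (adjusted p = 0.714, edgeR), the exact permutation p was 0.171, and limma-voom on 15 libraries turned the sign, to -0.27. Against Puma-/- the difference of Siglech was 0.72 (SE 0.342, adjusted p = 0.604, edgeR), and the groups did not overlap (exact permutation p = 0.0286), as for 4.0% of all genes. With replicate 2 included these groups overlapped, and limma-voom on 15 libraries turned the sign here too.

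Ccr9 encodes the receptor for the chemokine CCL25, which guides plasmacytoid dendritic cells and T cell precursors to the gut and thymus. The gene (ENSMUSG00000029530) lies on the plus strand of chromosome 9 from 123678439 to 123784330. Its level was 6.19, 2.79 and 3.92 CPM in WT, 6.36, 5.64, 4.26 and 6.01 in Puma-/-, and 3.08, 1.76, 2.34 and 3.50 in G3 mTerc-/-Puma+/+. The group labelled G3 mTerc-/-Puma-/- held 10.99, 5.35, 4.70 and 10.6 CPM, replicate 2 included in this order. Each of its libraries, replicate 2 too, was above every G3 mTerc-/-Puma+/+ library (exact permutation p = 0.0286 with 15 libraries). The log2 difference was 1.71 (SE 0.327, adjusted p = 0.0773, edgeR), the lowest adjusted p of any member in any of the comparisons, and with all 15 libraries 1.56 (adjusted p = 0.139, edgeR). With replicate 3 removed from the group labelled G3 mTerc-/-Puma-/-, it was 2.01 (adjusted p = 0.0393, edgeR). Over the 24 alternative settings its adjusted p ran from 5.1e-05 to 0.361. Ccr9 was also lower in every G3 mTerc-/-Puma+/+ library than in every Puma-/- library, as were 5.82% of all genes, with a log2 difference of -1.06 (SE 0.306, adjusted p = 0.109, edgeR). Exons of Slc6a20a and AC165425.1 on the opposite strand cover 19.0% of the exonic bases of Ccr9, and the strand setting of the counts is not stated, so part of its reads may belong to these neighbours.

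Cd300c encodes an activating immunoglobulin-like receptor of myeloid and plasmacytoid cells and lies on chromosome 11 (ENSMUSG00000058728, 114956116 to 114969157, minus strand). Its level was 9.51, 9.48 and 10.5 CPM in WT, 13.3, 14.1, 11.9 and 13.2 in Puma-/-, and 10.2, 2.46, 6.27 and 14.6 in G3 mTerc-/-Puma+/+. The group labelled G3 mTerc-/-Puma-/- held 12.1, 13.5 and 14.2 CPM in replicates 1, 3 and 4 and 0.172 CPM in replicate 2. The G3 mTerc-/-Puma+/+ libraries spanned the range of all other genotypes, replicate 2 aside. Their log2 difference to the group labelled G3 mTerc-/-Puma-/- was 0.66 (SE 0.378, adjusted p = 0.871, edgeR), or 0.25 (adjusted p = 0.947, edgeR) with replicate 2, and the groups overlapped. Unlike the other members, Cd300c did not overlap between WT and the higher Puma-/- libraries, as for 5.48% of all genes, and the difference was 0.42 on the log2 scale (SE 0.384, adjusted p = 0.734, edgeR, exact permutation p = 0.0286).

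Lag3 encodes a checkpoint receptor for MHC class II that plasmacytoid dendritic cells share with activated T cells and NK cells. The gene (ENSMUSG00000030124) lies on the minus strand of chromosome 6 from 124904361 to 124911705. Its level was 12.7, 22.5 and 9.84 CPM in WT and 16.3, 29.2, 24.0 and 18.2 in Puma-/-. G3 mTerc-/-Puma+/+ held 34.99, 8.88, 11.6 and 14.2 CPM, and the group labelled G3 mTerc-/-Puma-/- held 40.0, 16.9 and 18.2 in replicates 1, 3 and 4 and 7.71 in replicate 2. One library in each G3 group, replicate 1, was far above the others, and all genotypes overlapped. The log2 difference between these 2 groups was 0.52 (SE 0.449, adjusted p = 0.951, edgeR), and it was 0.011 once replicate 1 was removed from the group labelled G3 mTerc-/-Puma-/-. With replicate 2 included it was 0.25 (adjusted p = 0.911, edgeR).

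Tcf4, the E protein that sets the identity of the lineage, lies on chromosome 18 (ENSMUSG00000053477, 69343356 to 69689079, plus strand) and had the highest CPM of the members. Its level was 75.8, 56.5 and 69.1 CPM in WT, 73.0, 81.2, 59.4 and 67.3 in Puma-/-, and 61.5, 50.4, 47.7 and 67.7 in G3 mTerc-/-Puma+/+. The group labelled G3 mTerc-/-Puma-/- held 85.0, 78.1 and 73.7 CPM in replicates 1, 3 and 4 and 28.6 in replicate 2. The first 3 of these were above every G3 mTerc-/-Puma+/+ library, and replicate 2 was the lowest of all 15. The log2 difference was 0.47 (SE 0.137, adjusted p = 0.352, edgeR), the smallest of the 8 members, with an exact permutation p of 0.0571. With all 15 libraries it was 0.22 (adjusted p = 0.826, edgeR).

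Spib encodes an ETS transcription factor that acts with TCF4 in plasmacytoid dendritic cells and is also used by B cells. The gene (ENSMUSG00000008193) lies on the minus strand of chromosome 7 from 44525993 to 44532071. Its level was 30.0, 21.6 and 22.9 CPM in WT, 37.2, 28.1, 24.0 and 33.4 in Puma-/-, and 21.2, 5.82, 12.3 and 26.0 in G3 mTerc-/-Puma+/+. In the group labelled G3 mTerc-/-Puma-/- it was 39.9, 28.2 and 38.9 CPM in replicates 1, 3 and 4 and 1.82 in replicate 2. Replicate 3 of that label exceeded the highest G3 mTerc-/-Puma+/+ library by little. The log2 difference was 1.13 (SE 0.358, adjusted p = 0.452, edgeR), with an exact permutation p of 0.0571, and 0.74 (adjusted p = 0.754, edgeR) when replicate 2 was included.

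Pacsin1 encodes an adaptor of endocytosis and cytoskeleton that is best known from neurons and takes part in interferon production in plasmacytoid dendritic cells. It lies on chromosome 17 (ENSMUSG00000040276, 27655509 to 27711482, plus strand). Its level was 4.77, 2.77 and 3.14 CPM in WT, 5.08, 4.58, 2.79 and 3.68 in Puma-/-, and 3.84, 0.837, 1.07 and 2.39 in G3 mTerc-/-Puma+/+. The group labelled G3 mTerc-/-Puma-/- held 11.8, 5.81 and 7.97 CPM in replicates 1, 3 and 4 and 1.12 in replicate 2. As for Siglech, the first 3 were above every library of the other genotypes. The log2 difference to G3 mTerc-/-Puma+/+ was 2.06 (SE 0.443, adjusted p = 0.122, edgeR, exact permutation p = 0.0286). Without replicate 1 of G3 mTerc-/-Puma+/+ it was 2.58 (adjusted p = 0.0310, edgeR), and with all 15 libraries 1.71 (adjusted p = 0.334, edgeR). Against Puma-/- the difference of Pacsin1 was 1.08 (SE 0.436, adjusted p = 0.520, edgeR, exact permutation p = 0.0286). These groups did not overlap, as for 4.0% of all genes, but did so with replicate 2 included.

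Klk1, a tissue kallikrein whose transcript is found in this cell type, was the rarest member. The gene (ENSMUSG00000063903) lies on chromosome 7 from 44225360 to 44229618 on the plus strand. It had 38, 18 and 21 counts in WT, 55, 12, 17 and 20 in Puma-/-, 18, 7, 2 and 10 in G3 mTerc-/-Puma+/+, and 104, 33 and 77 in replicates 1, 3 and 4 of the group labelled G3 mTerc-/-Puma-/-. Replicate 2 had 0 counts, which allows up to 0.0258 CPM. In CPM the means were 0.243 ± 0.115 (SD, n = 3), 0.226 ± 0.161 (n = 4), 0.0778 ± 0.0484 (n = 4) and 0.517 ± 0.197 (n = 3) in this order. The log2 difference between the last 2 groups was 2.71 (SE 0.586, adjusted p = 0.122, edgeR, exact permutation p = 0.0286), the widest of the members, and it rests on few counts. Including replicate 2 gave 2.30 (adjusted p = 0.391, edgeR). Klk1 was also lower in every G3 mTerc-/-Puma+/+ library than in every WT library, as were 2.11% of all genes, with a log2 difference of -1.61 (SE 0.604, adjusted p = 0.998, edgeR). Of the 100-base stretches of its transcripts, 5.09% also occur in Klk1b11 or Klk1b5, related kallikreins whose reads cannot always be told apart.

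The levels of different members were set beside each other per kilobase of exonic sequence. This length joins the exons of all annotated transcripts of a gene, 27.38 kb for Tcf4 and 10.26 kb for Ccr9. Where it exceeds the transcripts in use, the value per kb is too low, so the order of members is approximate. In WT, Cd300c was at 9.23 ± 0.554 CPM per kb (SD, n = 3), Spib at 8.66 ± 1.58, Siglech at 7.46 ± 2.70 and Lag3 at 7.11 ± 3.14, which lie within each other's spread. Tcf4 was at 2.45 ± 0.358 CPM per kb. Pacsin1 at 0.546 ± 0.163, Ccr9 at 0.419 ± 0.169 and Klk1 at 0.226 ± 0.107 were the lowest. In the group labelled G3 mTerc-/-Puma-/-, Siglech had the highest level per length of the members, 13.7 ± 1.36 CPM per kb (n = 3), beside 12.5 ± 0.993 for Cd300c, 12.4 ± 2.27 for Spib and 11.9 ± 6.15 for Lag3. Across genotypes and without replicate 2, the order of the means was G3 mTerc-/-Puma+/+, WT, Puma-/- and then the group labelled G3 mTerc-/-Puma-/- for 6 members. For Klk1 the WT and Puma-/- means were in the opposite order, and for Lag3 WT was the lowest. Neighbours in this order did not differ beyond their spread for Tcf4, Spib, Ccr9 and Lag3, with exact permutation p-values of at least 0.143. Where they did not overlap, the exact p was the smallest possible, for Siglech and Pacsin1 between the last 2 groups, for Cd300c between WT and Puma-/-. For Klk1 the nearest to it was 0.0571, between G3 mTerc-/-Puma+/+ and Puma-/-.

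G3 mTerc-/-Puma+/+ was compared with WT, which shares its Puma genotype and addresses the loss of telomerase, and with Puma-/-, which differs from it in both genes. Against WT, 7 of the 8 members were lower, with a median log2 difference of -0.65 beside 0.018 over all genes. By edgeR 0 passed (0.0369% of all genes did), and 1, Klk1, had an unadjusted p under 0.05 (0 with all 15 libraries), as did 3.86% of all genes. Against Puma-/-, all 8 members were lower, with a median of -0.88 beside -0.00049 over all genes. Again 0 passed (0.801% of all genes did), while 6 had an unadjusted p under 0.05, beside 17.1% of all genes. In the fit of all 15 libraries 1 had one. With the Xist level as a covariate, 7 members were lower, with a median of -0.55. In that edgeR fit 0 passed (0.0948% of all genes did), and 1 had an unadjusted p under 0.05. Since Xist did not overlap between these groups, the covariate cannot separate sex from genotype in this comparison. With DESeq2, Ccr9 fell between Puma-/- and G3 mTerc-/-Puma+/+ (adjusted p = 0.0138), where 5.04% of all genes passed.

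The loss of Puma on the G3 mTerc-/- background was addressed by the group labelled G3 mTerc-/-Puma-/- against G3 mTerc-/-Puma+/+. All 8 members were higher, with a median log2 difference of 1.35 (0.95 with all 15 libraries) beside -0.015 over all genes. With edgeR 0 passed (0.0738% of all genes did), and 6 had an unadjusted p under 0.05, all but Cd300c and Lag3, beside 6.22% of all genes. In the fit of all 15 libraries these were 3. Without overlap between the genotypes were 6 members, beside 3.16% of all genes higher in every library, and with all 15 libraries only Ccr9, beside 2.03%. By DESeq2, 4 members rose, namely Siglech (adjusted p = 0.00088), Ccr9 (5.1e-05), Klk1 (0.0029) and Pacsin1 (0.00032), beside 0.906% of all genes. On 15 libraries DESeq2 called Ccr9 alone (adjusted p = 0.00057). Limma-voom called 0 with 14 and with 15 libraries, beside 0.0632% and 0.0104% of all genes. With the Xist level as a covariate, the log2 difference was 1.52 for Siglech (adjusted p = 0.154, edgeR), 1.49 for Ccr9 (0.0730), 1.92 for Pacsin1 (0.129) and 2.499 for Klk1 (0.199).

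**Figure D2:**
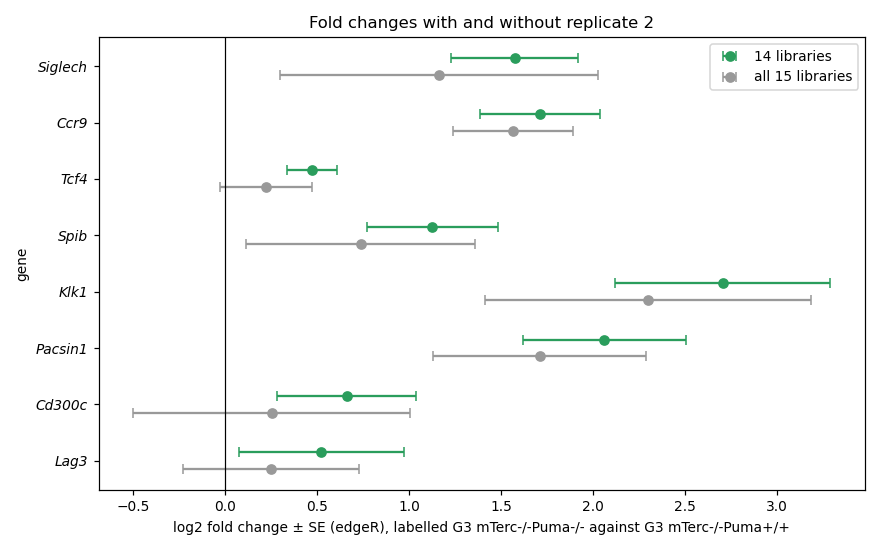
The log2 fold change with its SE (horizontal axis, edgeR) of each gene (vertical axis) between G3 mTerc-/-Puma+/+ and the group labelled G3 mTerc-/-Puma-/- (positive where the latter is higher), from 14 libraries (green) and from all 15 (grey). All estimates are above 0, and the SE of Siglech widens from 0.344 to 0.865 when replicate 2 is included while that of Ccr9 does not, at 0.327 and 0.325.

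Puma-/- against WT had 7 members higher, with a median log2 difference of 0.24 beside 0.0048 over all genes. By edgeR 0 passed (0.0790% of all genes), and 0 had an unadjusted p under 0.05, beside 10.1% of all genes. Against WT, the group labelled G3 mTerc-/-Puma-/- had 8 members higher, with a median of 0.81 (0.47 with all 15 libraries) beside 9.8e-05. Of these 0 passed in edgeR (0.0632% of all genes), 3 had an unadjusted p under 0.05 (Siglech, Ccr9 and Pacsin1, beside 5.45% of all genes, and 1 with all 15 libraries), and 3 did not overlap (Siglech, Pacsin1 and Cd300c, beside 5.32%). Against Puma-/- they had 8 members higher, with a median of 0.43 (0.11 with all 15 libraries) beside 0.0092. Here too 0 passed in edgeR (0.306% of all genes), 2 had an unadjusted p under 0.05 (Klk1 and Pacsin1, beside 8.42% of all genes, and 0 with all 15 libraries), and 2 did not overlap (Siglech and Pacsin1, beside 4.0%). In these last 2 comparisons 0 members were without overlap once replicate 2 was included. These comparisons share groups, so their values are not independent.

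Whether the change with Puma differed between mTerc backgrounds was tested by an interaction term of both genotypes. Its log2 value was above 0 for 7 members, with a median of 1.08 (0.72 with all 15 libraries) beside -0.0060 over all genes. By edgeR 0 passed (0.0527% of all genes), and 4 had an unadjusted p under 0.05 (1 with all 15 libraries), beside 4.93% of all genes. These were Klk1 at 2.80 (SE 0.812, adjusted p = 0.650), Pacsin1 at 1.88 (SE 0.619, adjusted p = 0.756), Siglech at 1.41 (SE 0.484, adjusted p = 0.811) and Ccr9 at 1.34 (SE 0.459, adjusted p = 0.811). The interaction of Lag3 was -0.026 (SE 0.639, adjusted p = 0.999, edgeR), and its sign changed with limma-voom and with the Xist covariate.

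**Figure D3:**
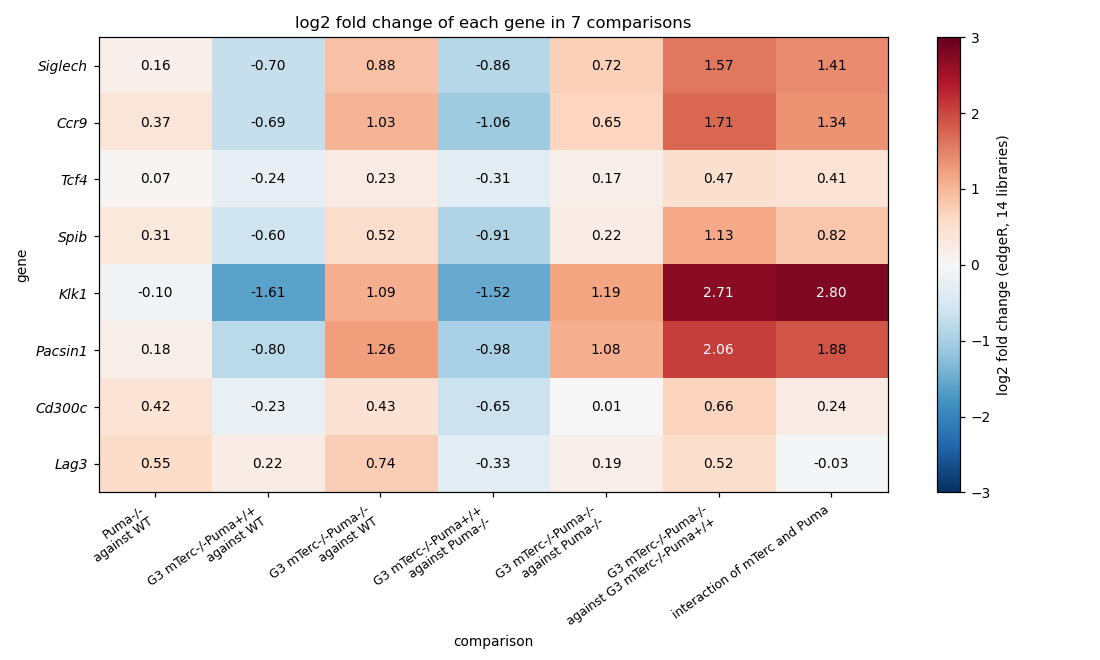
The log2 fold change (colour and printed number, edgeR with 14 libraries) of each gene (rows) in the 7 comparisons (columns, groups named by their labels). Red marks higher and blue lower values in the first-named group, with -1.61 and -1.52 for Klk1 as the lowest values and 2.80 and 2.71 for Klk1 as the highest, and 0 of the 56 values passed the adjusted threshold.

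Most members varied together across libraries. Over 14 libraries, log2 CPM of Siglech correlated with that of Pacsin1 at Pearson r = 0.96 (Spearman rho 0.93), Spib at 0.92 (0.95), Ccr9 at 0.92 (0.94), Tcf4 at 0.91 (0.88), Klk1 at 0.89 (0.88) and Cd300c at 0.80 (0.65). Each of these 6 passed the permutation test with 100000 resamples, with adjusted p of 2.3e-05 to 0.000735 for r and 4.7e-05 to 0.0165 for rho, over the 7 relations. The unadjusted p for r was 1e-05 for Pacsin1, Ccr9 and Tcf4, the smallest these permutations can give, 2e-05 for Spib, 4e-05 for Klk1 and 0.00063 for Cd300c. Lag3 did not pass, with r = 0.45 (permutation p = 0.108, adjusted 0.108) and rho = 0.30 (permutation p = 0.299). Without the 2 libraries farthest from the median of Siglech, which were replicates 2 and 3 of G3 mTerc-/-Puma+/+, r stayed between 0.80 and 0.89 for Ccr9, Tcf4, Spib, Klk1 and Pacsin1. It was 0.41 for Cd300c and 0.014 for Lag3, so that the relation of Cd300c rests on those 2 libraries. As deviations from the genotype means, r was 0.71 to 0.89 for the 6 genes that passed (adjusted permutation p of 7e-05 to 0.00521), and 0.28 for Lag3. With all 15 libraries, r with Ccr9 was 0.26 (adjusted permutation p = 0.344), since replicate 2 kept its Ccr9 at a Siglech level near 0, while r with Tcf4 and Spib was 0.94 and 0.95.

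**Figure D4:**
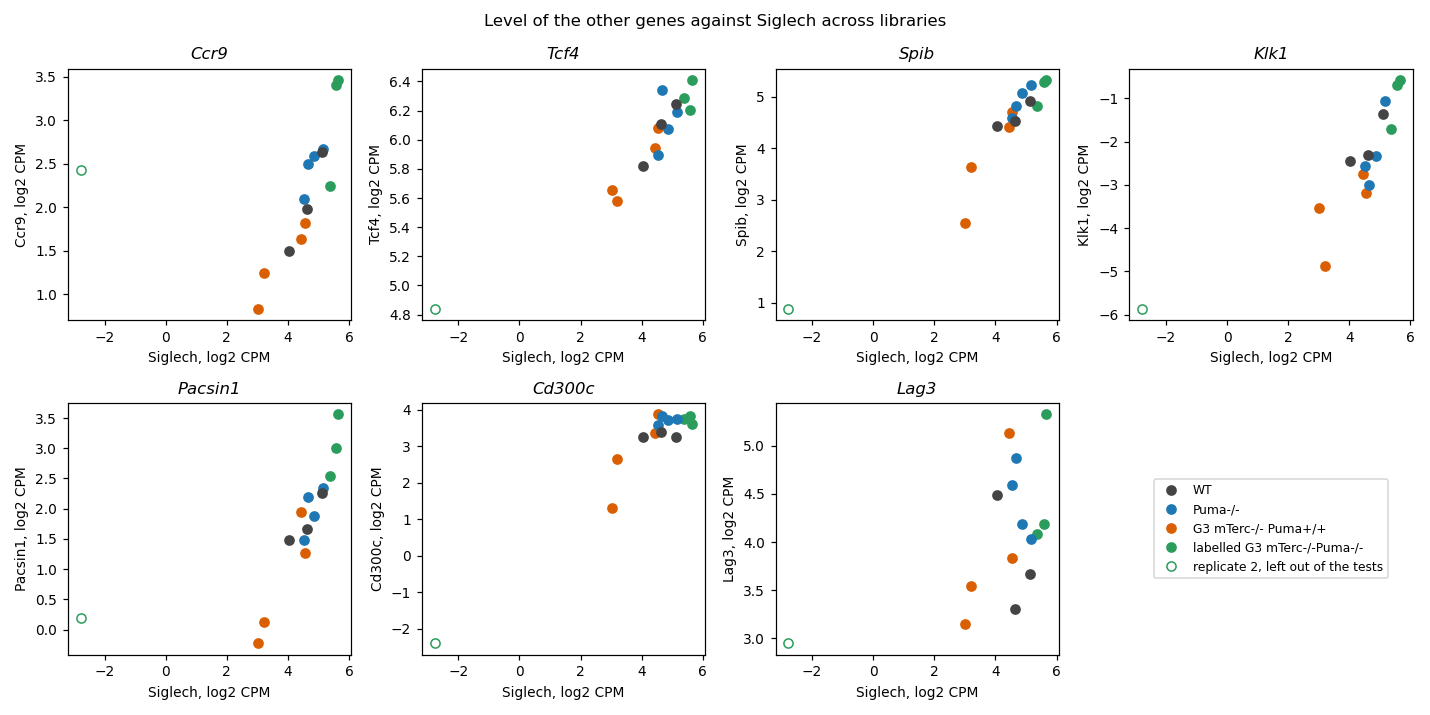
Level of each other gene (vertical axis, log2 CPM) against Siglech (horizontal axis, log2 CPM), with 1 circle per library coloured by genotype. Filled circles follow a rising line for every gene but Lag3 (r = 0.45 over 14 libraries), and the open circle, replicate 2 of the group labelled G3 mTerc-/-Puma-/-, lies far to the left.

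The 10 genes outside the set whose log2 CPM followed Siglech most closely, of 12924 genes with a symbol and a mean of at least 1 CPM, were Xkrx (r = 0.98), Cox6a2 (0.97), Ly6d (0.97), Havcr1 (0.96), Slc41a2 (0.95), Lynx1 (0.95), Cdh5 (0.94), Chst3 (0.93), Paqr5 (0.92) and Ddr1 (0.92). They were taken by their rank, so that these values are a description. Cox6a2 and Ly6d are themselves known plasmacytoid dendritic cell genes. In replicate 2 of the group labelled G3 mTerc-/-Puma-/-, Havcr1 was at 0.00861 CPM and Paqr5 at 0.232, near absence as for Siglech, whereas Cdh5 was at 5.92 CPM and Ddr1 at 9.05, close to their means over the other libraries of 3.996 and 10.998. Ranked among the same genes, Pacsin1 came 5th and Lag3 1486th.

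Further genes of the cell type were taken from a list of 15 genes, of which 14 passed the filter. From G3 mTerc-/-Puma+/+ to the group labelled G3 mTerc-/-Puma-/-, 11 of the 14 were higher, with a median log2 difference of 0.40 beside -0.015 over all genes. At an unadjusted p under 0.05 were 6 of them, beside 6.22% of all genes, and 1 passed, beside 0.0738%. With replicate 2 included 10 were higher, with a median of 0.31, and 0 passed. That gene was Ly6d, a surface protein of plasmacytoid and B lymphoid precursors, which rose from 17.1 ± 7.35 CPM (SD, n = 4) to 62.1 ± 4.31 (n = 3), a log2 difference of 1.86 (SE 0.265, adjusted p = 0.0231, edgeR). Ly6d was at 7.12 CPM in replicate 2, and with all 15 libraries its difference was 1.497 (adjusted p = 0.320, edgeR). Cox6a2, a subunit of cytochrome c oxidase, was at 5.21 ± 2.23 and 14.5 ± 0.814 CPM (1.48, SE 0.266, adjusted p = 0.0761, or 1.08 and 0.588 with replicate 2). Bst2, the antiviral tetherin that carries the epitope PDCA-1, was at 95.1 ± 15.04 and 141 ± 14.97 CPM (0.57, SE 0.113, adjusted p = 0.0887, or 0.36 and 0.574 with replicate 2). Klra17, a lectin-like receptor, was at 0.604 ± 0.274 and 1.80 ± 0.314 CPM (1.57, SE 0.374, adjusted p = 0.186, or 1.21 and 0.487 with replicate 2). In each of the other 6 comparisons, 0 of the 14 passed in edgeR, with 1 to 7 at an unadjusted p under 0.05, beside 3.86% to 17.1% of all genes. Several of these genes are expressed by other marrow cells, and the 2 most abundant, Plac8 and Ly6c2, were at 1260 to 2237 and 710 to 1604 CPM.

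Of 8 further regulators and receptors, 7 were higher in the group labelled G3 mTerc-/-Puma-/- than in G3 mTerc-/-Puma+/+, with a median log2 difference of 0.21. With replicate 2 included 3 of 8 were higher and the median was -0.017. By edgeR 0 passed in any comparison, with 0 to 2 at an unadjusted p under 0.05, beside 3.86% to 17.1% of all genes. Irf7, the amplifier of interferon genes, was at 23.0 ± 8.62 CPM (SD, n = 4) and 40.7 ± 5.89 (n = 3), a log2 difference of 0.83 (SE 0.230, adjusted p = 0.315, edgeR, or 0.72 and 0.301 with replicate 2). Flt3 differed by -0.55 between G3 mTerc-/-Puma+/+ and Puma-/- (SE 0.217, adjusted p = 0.220). Zeb2, a repressor needed for the lineage, differed by -0.34 between Puma-/- and WT (SE 0.177, adjusted p = 0.533), and the corepressor gene Cbfa2t3 by -0.28 between the group labelled G3 mTerc-/-Puma-/- and Puma-/- (SE 0.148, adjusted p = 0.667). Among the E proteins Tcf3 and Tcf12 and their inhibitors Id1, Id2 and Id3, 0 of 5 passed in edgeR in any comparison. At an unadjusted p under 0.05 were 0 to 2 of them, beside 3.86% to 17.1% of all genes. Id2, which opposes TCF4, was at 36.2 to 85.1 CPM in G3 mTerc-/-Puma+/+ and at 54.8 to 69.4 in replicates 1, 3 and 4 of the group labelled G3 mTerc-/-Puma-/-. Among the 6 pairs of genotypes, the lowest p of Id2 was that of a difference of -0.30 (SE 0.232, adjusted p = 0.789), between the latter and Puma-/-. By the same rule Tcf3 differed by 0.075 between the G3 groups (SE 0.0742, adjusted p = 0.960), Id1 by -0.83 between Puma-/- and WT (SE 0.296, adjusted p = 0.414), and the interaction of Id3 was 1.33 (SE 0.471, adjusted p = 0.840).

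The machinery by which the cells sense nucleic acid was represented by 10 genes, of which 8 passed the filter. By edgeR 0 of the 8 passed in any comparison, and beside 3.86% to 17.1% of all genes, 0 or 1 had an unadjusted p under 0.05. Tlr7, the endosomal receptor for single-stranded RNA, was that gene in 4 of the 7 comparisons. Its level was 3.17 ± 1.03 CPM in G3 mTerc-/-Puma+/+ (n = 4) beside 8.72 ± 1.78 (SD) in 3 of the 4 libraries labelled G3 mTerc-/-Puma-/-, with a log2 difference of 1.46 (SE 0.298, adjusted p = 0.105, edgeR) without overlap in 14 libraries, and of 1.15 (adjusted p = 0.354) with replicate 2, which held 2.01 CPM. Tlr9, the receptor for CpG DNA, differed by -0.41 between G3 mTerc-/-Puma+/+ and Puma-/- (SE 0.250, adjusted p = 0.427). The kinase gene Irak1 differed by -0.13 between the group labelled G3 mTerc-/-Puma-/- and Puma-/- (SE 0.0714, adjusted p = 0.686), and the chaperone gene Unc93b1 had an interaction of 0.29 (SE 0.171, adjusted p = 0.999). In replicate 2 of the group labelled G3 mTerc-/-Puma-/-, Tlr9 was at 0.774 CPM, beside 7.66 to 23.3 in all others. The interferon genes Ifna4 and Ifnb1 had at most 5 counts in any library.

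Markers of other cells moved with the members in part. The 10 B lineage genes summed to 41.1 to 54.9 CPM in G3 mTerc-/-Puma+/+ and to 76.5 to 149 in replicates 1, 3 and 4 of the group labelled G3 mTerc-/-Puma-/-, beside 66.3 to 72.5 in WT and 74.5 to 87.7 in Puma-/-. All 10 were higher between the 2 G3 groups, with a median log2 difference of 2.17. Among those that rose in edgeR were Igll1, part of the surrogate light chain (2.95, SE 0.454, adjusted p = 0.0393), and the adaptor gene Blnk (1.79, SE 0.233, adjusted p = 0.0128). With all 15 libraries Igll1 no longer passed (adjusted p = 0.191, edgeR), while Blnk did. Ms4a1, the gene of CD20, fell in G3 mTerc-/-Puma+/+ against Puma-/- (-2.61, SE 0.270, adjusted p = 0.00044, edgeR), also with all 15 libraries (adjusted p = 0.0039). Blnk fell there as well (-1.10, SE 0.218, adjusted p = 0.0431), but did not pass with all 15 (adjusted p = 0.104). The most abundant B lineage genes were Cd79b and Cd79a, at 27.5 to 42.1 and 3.37 to 26.9 CPM, and Rag1 was at 0 in replicate 2. Over 14 libraries, the log2 sum of the B lineage genes and Siglech correlated at r = 0.70 (permutation p = 0.00553, adjusted 0.0636) and rho = 0.74 (permutation p = 0.00344, adjusted 0.0467), with r = 0.61 without the 2 libraries farthest from the median sum. As deviations from the genotype means, r was -0.0035, and with all 15 libraries 0.20. The relation was thus one between genotypes, and the part of B lineage cells in the Siglech level was not tested further.

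The relations of all 8 members with 5 lists of other cells, 40 in all, were computed after the values had been seen. Lag3 followed the 8 T cell genes, at r = 0.80 (permutation p = 0.00079, adjusted 0.0316) and rho = 0.75 (permutation p = 0.00334, adjusted 0.0467), with r = 0.70 without the 2 farthest libraries, 0.84 as deviations from the genotype means and 0.58 with all 15 libraries. The T cell genes summed to 148 CPM in replicate 1 of G3 mTerc-/-Puma+/+, 135 in replicate 1 of the group labelled G3 mTerc-/-Puma-/- and 136 in replicate 2 of Puma-/-, the 3 libraries with the most Lag3. In the other libraries they summed to 22.0 to 117 CPM, and Cd8a, at 4.72 to 50.9, and Cd3g, at 4.96 to 36.7, were the most abundant. Of the 8 T cell genes 0 passed in edgeR in any comparison. Beside 3.86% to 17.1% of all genes, 0 to 3 had an unadjusted p under 0.05, Lef1 among them (1.19 between the G3 groups, SE 0.258, adjusted p = 0.122). The other named T cell genes were Cd4 (2.82 between the group labelled G3 mTerc-/-Puma-/- and WT, SE 0.795, adjusted p = 0.497), Cd5 (0.60 between the G3 groups, SE 0.268, adjusted p = 0.762) and Bcl11b (0.84, SE 0.522, adjusted p = 0.887).

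Cd300c followed the 10 conventional dendritic cell genes, at r = 0.88 (permutation p = 0.00204, adjusted 0.0408), but rho was 0.40 (permutation p = 0.159, adjusted 0.303). Without the 2 farthest libraries r was 0.52, so that this relation rests on few libraries. As deviations from the genotype means its r was 0.95, and with all 15 libraries 0.95. The sum of these genes was 90.1 CPM in replicate 2 of G3 mTerc-/-Puma+/+, the library with the least Cd300c among the 14, 45.3 in replicate 2 of the group labelled G3 mTerc-/-Puma-/-, and 167 to 296 elsewhere. Between the 2 G3 groups 6 of the 10 were higher, with a median log2 difference of 0.035 (2 of 10 and -0.22 with replicate 2), whereas the median of the 8 members was 1.35. Of the 10, 0 passed in edgeR, and 1 had an unadjusted p under 0.05, beside 6.22% of all genes. The other 38 relations had adjusted permutation p-values for r of at least 0.0636. For rho, Spib and the B lineage genes also passed (0.74, permutation p = 0.0035, adjusted 0.0467), with r = -0.20 as deviations from the genotype means. As such deviations, the members followed the conventional dendritic cell genes at r of 0.16 (Klk1) to 0.95 (Cd300c), with 0.90 for Spib and 0.70 for Siglech. With the monocyte and macrophage genes, r was 0.15 (Lag3) to 0.80 (Siglech). With the NK cell genes it was negative for every member, from -0.83 (Ccr9) to -0.21 (Lag3). It was -0.54 (Ccr9) to 0.016 (Tcf4) with the B lineage genes and 0.0024 (Klk1) to 0.84 (Lag3) with the T cell genes. These values within genotypes were not tested.

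**Figure D5:**
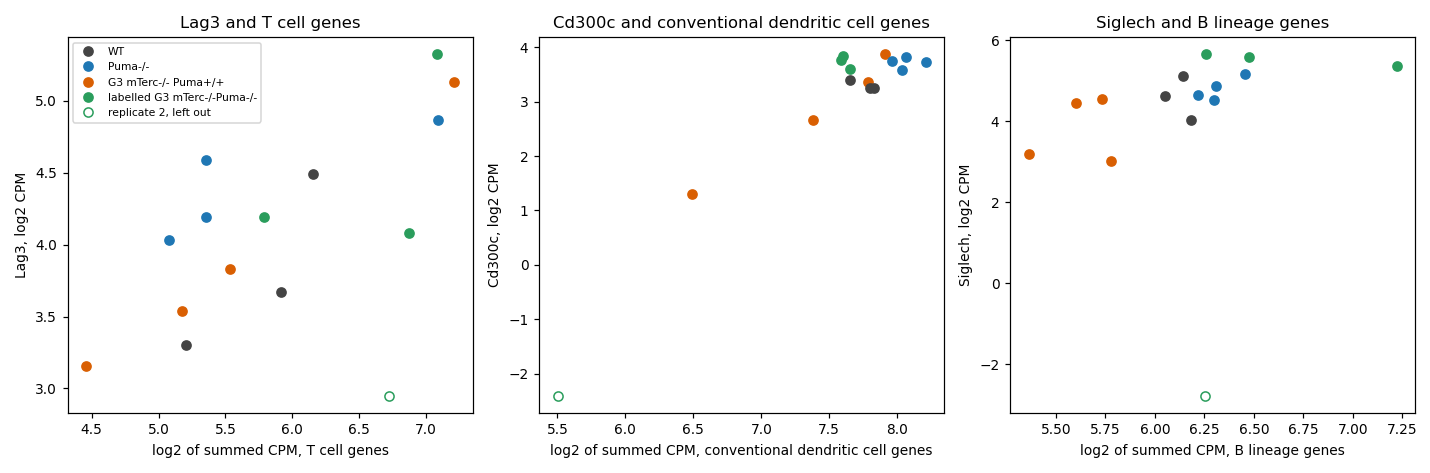
Level of Lag3, Cd300c and Siglech (vertical axes, log2 CPM) against the log2 summed CPM of T cell, conventional dendritic cell and B lineage genes (horizontal axes), with 1 circle per library. Lag3 rises with the T cell genes (r = 0.80), Cd300c follows its list mainly through the lowest libraries (r = 0.88, rho 0.40), and Siglech follows the B lineage genes between genotypes (r = 0.70) but not within them (r = -0.0035).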

How the data were processed

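RNA of lineage-negative marrow cells was sequenced in 15 libraries. Per the methods, the authors trimmed reads, aligned them to GRCm38 and deposited raw counts per gene, and the submitters' processing notes name Trimmomatic 0.38 and STAR 2.5.2b. The annotation release and strand setting are not given in the sources used here. Counts were tested in R 4.3.3 with edgeR 4.0.16 (TMM, filterByExpr, quasi-likelihood test, 1 fit of 4 genotypes, Benjamini-Hochberg over 18983 genes, threshold 0.05), with DESeq2 1.42.0 and limma 3.58.1 as alternatives. A prior count of 2 entered log2 CPM. The SE is the log2 fold change over the root of the F statistic. Single genes were compared by exact two-sided permutation of the difference of mean CPM, and correlations by 100000 permutations (scipy 1.17.1, numpy 2.4.6). Between replicates the chi-square per gene was 39.9 to 774, so that every pair differed beyond sampling noise. The members and lists were chosen with earlier results of these data known. Named were all members, up to 4 genes per list with the smallest p, the 2 most abundant genes of other cell types, and 10 genes most like Siglech. The lists were further genes of the cell type, its regulators, E proteins and inhibitors, nucleic acid sensing, conventional dendritic, B lineage, T, NK, monocyte and stem cells. The calculations were tested on simulated counts. The values of 1 B lineage gene are not reported here.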

Additional observations from a re-analysis of the deposited data

Results flagged for a closer look

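In 1 of 24 groups of 4 libraries (8 members in 3 genotypes), a library was farther from the others than Dixon's 95% limit allows. Cd300c was at 0.172 CPM in replicate 2 of the group labelled G3 mTerc-/-Puma-/-, beside 12.1 to 14.2 CPM in the other 3, a gap of 0.852 of the whole range. Chance alone gives about 1 in 20 such groups. In the same library every other member but Ccr9 was also the lowest of its group, and the limit was not passed for them.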

How the results depend on the processing

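In 5 of the 7 comparisons, 0 members passed under every alternative. Between G3 mTerc-/-Puma+/+ and Puma-/- it was 1 (Ccr9) with DESeq2, beside 5.04% of all genes, and 1 with DESeq2 on all 15 libraries, beside 2.17%. Between the G3 groups it was 4 with DESeq2, 1 with DESeq2 on 15 libraries, 1 without a filter on low counts (Ccr9, adjusted p = 0.0418), 2 with the replicate number as a block (Siglech and Ccr9, adjusted p = 0.0444 for both, edgeR) and 0 to 1 when 1 library was left out. The block paired only numbers, since 3 of 18 same-numbered pairs of libraries correlated above 0.1 in their deviations (r from -0.25 to 0.18). Of the log2 fold changes, 764 of 784 kept their sign when 1 library was left out, and 517 of 552 under the other settings. With all 15 libraries the sign turned for Tcf4 against WT (-0.016), for Tcf4 (-0.082), Spib (-0.17), Cd300c (-0.39) and Lag3 (-0.082) against Puma-/-, and for the interaction of Cd300c (-0.16). DESeq2 on 15 libraries gave -0.020 for the first, -0.077, -0.17, -0.39 and -0.075 for the next, and -0.16 for the last. Limma-voom on 15 libraries gave -1.04 (Siglech), -0.12 (Tcf4), -0.48 (Spib), -0.50 (Klk1) and -1.05 (Cd300c) against WT. Against Puma-/- it gave -1.25 (Siglech), -0.19 (Tcf4), -0.78 (Spib), -0.29 (Klk1), -1.47 (Cd300c) and -0.23 (Lag3). Between the G3 groups it gave -0.27 (Siglech) and -0.58 (Cd300c), and for the interaction -0.48 (Siglech), -0.011 (Spib) and -0.99 (Cd300c). These 15-library combinations were chosen after seeing the data. With the Xist covariate, Puma-/- against WT turned to -0.013 for Siglech and -0.14 for Pacsin1, Lag3 between G3 mTerc-/-Puma+/+ and Puma-/- to 0.16, and the interaction of Lag3 to 0.11 (0.0074 with limma-voom). Cd300c between the group labelled G3 mTerc-/-Puma-/- and Puma-/- was -0.00014 with library size alone and -0.16 with the replicate block. Leaving out 1 library gave, for Puma-/- against WT, -0.73 to 0.34 (Klk1), -0.071 to 0.44 (Siglech) and -0.044 to 0.15 (Tcf4). It gave -0.39 to 0.63 (Lag3) and -0.64 to 0.070 (Cd300c) for G3 mTerc-/-Puma+/+ against WT, -0.036 to 0.076 (Cd300c) and -0.32 to 0.41 (Lag3) for the group labelled G3 mTerc-/-Puma-/- against Puma-/-, and -0.54 to 0.58 (Lag3) and -0.054 to 0.65 (Cd300c) for the interaction. The cause of these changes was not tested, other than that the 15-library settings add replicate 2. Depth limits Klk1, with 0 to 104 counts a library.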

Other observations

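The lists of further marrow cells showed no gene that passed in edgeR in any of the 7 comparisons, NK cell, monocyte and macrophage, conventional dendritic, and stem and progenitor genes alike. Conventional dendritic cell genes were lower in G3 mTerc-/-Puma+/+ than in Puma-/- for 10 of 10, with a median log2 difference of -0.68 and 7 at an unadjusted p under 0.05 (17.1% of all genes). The 4 with the smallest p over all comparisons were Ccr7, the receptor for migration to lymph nodes (-1.15 in G3 mTerc-/-Puma+/+ against WT, SE 0.269, adjusted p = 0.431), the transcription factor gene Batf3 (-1.01 in the group labelled G3 mTerc-/-Puma-/- against Puma-/-, SE 0.263, adjusted p = 0.175), Clec10a (-0.38 in G3 mTerc-/-Puma+/+ against Puma-/-, SE 0.151, adjusted p = 0.217) and H2-DMb2 (-0.34 in the same comparison, SE 0.138, adjusted p = 0.231). The most abundant were Itgax, at 10.4 to 85.7 CPM, and Cd209a, at 0.0861 to 78.1 CPM, both lowest in replicate 2 of the group labelled G3 mTerc-/-Puma-/-.

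Stem and progenitor genes were lower in the group labelled G3 mTerc-/-Puma-/- than in Puma-/- for 7 of 8, with a median of -0.31 and 5 at an unadjusted p under 0.05 (8.42% of all genes). Cpa3, a mast cell protease, differed by -0.85 there (SE 0.215, adjusted p = 0.154), Kit by -0.36 (SE 0.104, adjusted p = 0.249), Meis1 by -0.58 (SE 0.222, adjusted p = 0.477), and Gata2 by -0.77 between G3 mTerc-/-Puma+/+ and Puma-/- (SE 0.216, adjusted p = 0.101). Of 6 monocyte and macrophage genes, 0 or 1 had an unadjusted p under 0.05 in each comparison, beside 3.86% to 17.1% of all genes. Between the G3 groups 5 were higher, but 1 when replicate 2 was included (medians of 0.17 and -0.22). Adgre1, the gene of F4/80, differed by 0.91 between the G3 groups (SE 0.267, adjusted p = 0.371), Fcgr1 by 0.72 between the group labelled G3 mTerc-/-Puma-/- and Puma-/- (SE 0.318, adjusted p = 0.569), and Ccr2 by 0.25 between G3 mTerc-/-Puma+/+ and Puma-/- (SE 0.104, adjusted p = 0.238). The interaction of Ly86 was 0.35 (SE 0.182, adjusted p = 0.989). Ccr2 and Csf1r, the most abundant, were at 44.2 and 26.0 CPM in replicate 2 of the group labelled G3 mTerc-/-Puma-/- and at 264 to 411 and 239 to 403 CPM in the others. Of 6 NK cell genes, 0 had an unadjusted p under 0.05, beside 3.86% to 17.1% of all genes over the comparisons. Gzma differed by 1.14 (SE 0.546, adjusted p = 0.507) and Ncr1 by 0.91 (SE 0.512, adjusted p = 0.569) between Puma-/- and WT, Eomes by 0.95 (SE 0.554, adjusted p = 0.9998) and Klrb1c by 0.63 (SE 0.378, adjusted p = 0.9998) between the group labelled G3 mTerc-/-Puma-/- and WT. The most abundant, Nkg7, was at 267 to 564 CPM.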
